A study of Mus musculus with 2 samples.

Results

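Mesothelial cells, which line the surface of the lung, were picked from single-cell RNA sequencing of 2 mouse lungs. A cell was taken as mesothelial when it held at least 1 UMI (unique molecular identifier, 1 counted transcript) of at least 3 of the 6 genes Msln, Upk3b, Wt1, Lrrn4, Upk1b and Gpm6a, no UMI of the leukocyte gene Ptprc, and at most 10% of its UMIs on mitochondrial genes. This rule found 56 cells among the 14971 cells within the mitochondrial limit, out of 15453 deposited. The control library and the fibrosis library each came from 1 male C57Bl/6J mouse aged 3 months, whose lung was taken 14 days after 100 µg of titanium dioxide or crocidolite asbestos had been placed in the trachea. Crocidolite fibres cause lung scarring and disease of the pleura, and titanium dioxide serves as a particle control in such studies. Which mouse was given which particle is not said in the labels, so the groups are called control and fibrosis. Lungs were digested with dispase and DNase I and made into 10x Genomics droplet libraries that count transcripts from their 3′ ends. With 1 mouse per library no difference between the libraries has a replicate check, no test or p-value is given, and all 95% intervals cover counting error only.

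The mesothelium is a thin sheet of cells of mesodermal origin that covers the lung and lines the chest wall. It keeps features of an epithelium, such as keratins and apical microvilli, and also makes many proteins that are typical of connective tissue. Mesothelial cells coat the pleural surface with hyaluronan and glycoproteins that let it glide, move water and solutes across it, and in development use the transcription factor Wt1 and locally made retinoic acid.

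The mesothelial cells made up 28 of 8026 control cells, a share of 0.349% (exact Clopper-Pearson interval 0.232% to 0.504%), and 28 of 6945 fibrosis cells, a share of 0.403% (0.268% to 0.582%). The intervals of these shares overlapped. Among cells without a Ptprc UMI the shares were 0.969% of 2890 control cells and 0.937% of 2989 fibrosis cells. The mesothelial cells held 0.374% of the kept cells and 0.578% of their UMIs. UMIs per mesothelial cell ran from 2618 to 22947 in the control library, with a median of 5178.5, and from 2336 to 37762 in the fibrosis library, with a median of 5952. Medians over all kept cells were 3810.5 and 4340 UMIs. The deepest mesothelial cell held 11.2% of the class's control UMIs, and the deepest in the fibrosis library held 17.4% of its fibrosis UMIs. The median mitochondrial share was 3.53% and 3.56%. The libraries shared 89 barcodes, and 1 of the mesothelial cells had a barcode that also occurred in the other library.

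The rule counts these genes, so the number of them per cell is a description of the choice. Over both libraries 32 mesothelial cells held all 6 genes, 20 held 5, 3 held 4 and 1 held 3. Only 5 cells without Ptprc held 2 of the genes, 1 of them control and 4 fibrosis. The cell just inside the rule, in the fibrosis library, had 3137 UMIs, of which 4 were Msln, 1 Lrrn4 and 1 Gpm6a, and it also had 15 UMIs of Gpc3 and 13 of Igfbp5. Of the cells just outside, 2 fibrosis cells were very deep, with 42248 and 32824 UMIs, and the control cell had 1559. A further 6 cells in each library held at least 3 rule genes and 1 to 3 UMIs of Ptprc, and the rule left these 12 cells among the other cells.

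**Figure D1:**
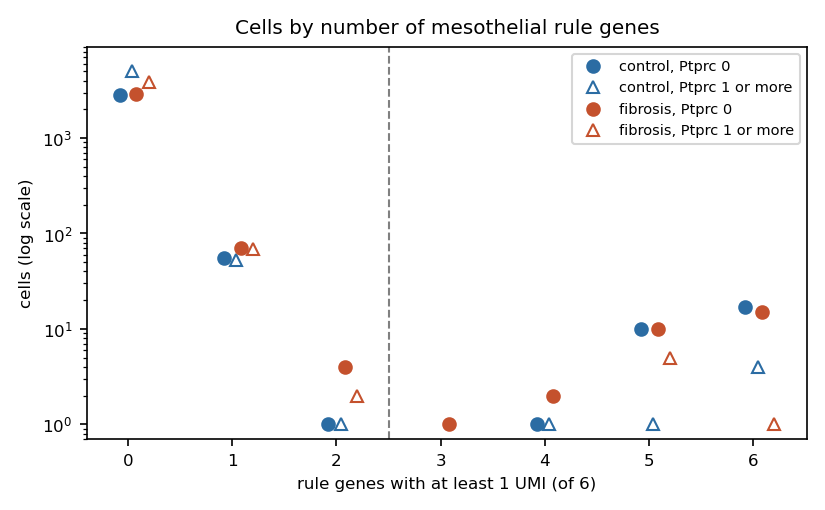
Number of kept cells (log axis) by how many of the 6 rule genes had at least 1 UMI, for cells with no Ptprc UMI (filled circles) and with 1 or more (open triangles), in the control (blue) and fibrosis (orange) libraries; the dashed line marks the limit of 3 genes. Between the many cells with 0 or 1 gene and the cells with 5 or 6 lie only a few, with 5 cells at 2 genes and 4 cells at 3 or 4 genes among those without Ptprc.

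The label was checked against markers of 9 other cell classes, each with 6 markers. In the control library none of the 6 ciliated-cell markers had a UMI in the mesothelial cells, and in the fibrosis library 5 of 6 had none. Of the fibroblast markers 4 of 6 had no UMI in either library, Tcf21 and Mfap4 among them, and the summed level was 485 CPM (UMIs of a gene divided by all UMIs of the class and scaled up) in control and 405 CPM in fibrosis, against 12392 and 10023 CPM in fibroblasts. That remainder was nearly all Ces1d, a carboxylesterase, with 98 control and 87 fibrosis UMIs. The fibroblasts were chosen by the same 6 fibroblast markers, so the marker level in them was fixed in part by the choice. Summed endothelial markers reached at most 2 UMIs in a cell and T-cell markers at most 1. Summed AT1 markers ran from 0 to 14 UMIs per control cell and from 0 to 8 per fibrosis cell, and were mostly Spock2, a matrix proteoglycan with 66 and 62 UMIs. AT2 markers reached at most 3 UMIs in a cell, B-cell markers at most 8 and alveolar macrophage markers at most 5. The rule left out cells with the leukocyte gene Ptprc, so low T-cell, B-cell and macrophage markers were fixed in part by the choice. Of the 56 cells, 3 in each library also met the rule of another class (AT1, AT2 or B cell). Transcripts of secretory cells were present throughout. Sftpc, the surfactant gene of AT2 cells, had a median of 8.20 UMIs per 10000 in control and 10.997 in fibrosis mesothelial cells. In B cells of the same libraries, which were less deep, it was 16.6 and 15.6. Counted as UMIs per cell the order was the opposite, with medians of 6 and 7 in mesothelial cells and 4 and 5 in B cells.

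The 6 rule genes chose the cells, so their values are a description. Msln, which encodes the surface glycoprotein mesothelin (ENSMUSG00000063011, chromosome 17, minus strand), had 586 control and 662 fibrosis UMIs. Per 10000 UMIs of a cell its lowest, median and highest values were 3.17, 30.1 and 57.8 in control and 0, 29.7 and 46.2 in fibrosis. Upk3b, a uroplakin of the cell membrane, had 546 and 466 UMIs, with medians of 25.3 and 21.3 per 10000. Gpm6a, a membrane glycoprotein, had 435 and 408 UMIs and was seen in all 56 cells. Lrrn4 had 161 and 172 UMIs in 54 cells, and the uroplakin gene Upk1b had 153 and 156 UMIs in 52 cells. Wt1 had only 40 and 46 UMIs, in 18 control and 17 fibrosis cells. With every cell thinned to 1500 UMIs, a Wt1 UMI was left in 4 of 28 cells in each library and an Msln UMI in 28 control and 26 fibrosis cells, so the share of cells with Wt1 followed depth. B cells served as cells that should lack these genes, at median depths of 1991 and 2742.5 UMIs. Msln was seen in 0.567% and 1.09% of them, and Gpm6a in 0.189% and 0.182%. For each of the 6 genes the cells of the 2 libraries overlapped.

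Outside the mesothelial cells the rule genes were rare in most classes. Exceptions were Gpm6a in AT1 cells (61 UMIs, 234 CPM) and Upk1b in fibroblasts (26 UMIs, 112 CPM), over both libraries. The mesothelial cells held 75.3% of all Msln UMIs of the kept cells, 81.9% of Upk3b, 84.3% of Wt1, 76.6% of Lrrn4, 68.2% of Upk1b and 71.4% of Gpm6a. Of the 410 Msln UMIs elsewhere, 312 lay in the 12 cells with Ptprc.

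Genes that the rule did not use set the class apart as well. Because the cells were chosen by expression, the ratios to other cells describe the class and test nothing. Of 2227 genes with enough UMIs, 470 were at least 4-fold higher in CPM in mesothelial cells than in all other kept cells, which is 21.1%. The median log2 ratio over all 2227 genes was 0.72. In each library taken alone 428 of the 470 were also at least 4-fold higher.

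Among the 25 genes with the largest ratios, Lgals2, a galectin, came first with a log2 ratio of 10.50. It had 166 control and 200 fibrosis UMIs in 42 cells, and 89.5% of its UMIs in the data lay in mesothelial cells. Sfrp2, a secreted modulator of Wnt signalling, followed with 121 and 224 UMIs and a log2 ratio of 9.74. Bnc1, a zinc-finger transcription factor of epithelia and mesothelium, had 29 and 34 UMIs. Chst4 encodes a carbohydrate sulfotransferase and had 51 and 68 UMIs. Muc16, the large cell-surface mucin known as the CA125 antigen, had 66 and 46 UMIs in 46 cells. Nkain4, a membrane protein that binds the sodium pump, had 296 and 275 UMIs in 53 cells. Each of these genes was present in both libraries, and their log2 ratios ran from 8.87 to 10.50.

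Rarres2 encodes chemerin, a secreted chemoattractant, and was seen in every mesothelial cell. It had 2205 control UMIs (10792 CPM) and 1668 fibrosis UMIs (7668 CPM), and 72.1% of all its UMIs lay in the class. Per 10000 UMIs its lowest, median and highest values were 53.6, 108 and 176 in control and 19.1, 75.8 and 147 in fibrosis. The libraries overlapped over most of that range, with the lowest cells in fibrosis and the highest in control. Fibroblasts were the comparison class with the next highest level. Gpc3, a glypican that anchors heparan sulfate at the surface, was also found in all 56 cells, with 730 and 700 UMIs and a log2 ratio of 8.38. The claudin gene Cldn15, which forms ion-selective tight-junction pores, had 139 and 138 UMIs, nearly the same in both libraries.

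Among the rest of the 25 were C2 of the complement cascade (198 and 169 UMIs), Gas1, a Hedgehog co-receptor (137 and 122), and Sbsn (204 and 162). Has1, a hyaluronan synthase, was sparse, with 16 and 14 UMIs in 18 cells. The BMP antagonists Chrd (13 and 17 UMIs) and Chrdl1 (31 and 36) were both in the ranking. Genes named for other tissues appeared too, namely Myl7, an atrial myosin light chain (58 and 104 UMIs in 26 cells), Ngb, neuroglobin (33 and 26), Syn2, a synapsin (23 and 15), and Calcb, a CGRP peptide (19 and 11). Slurp1, Fras1, Pkhd1l1, Fam180a, Crym and Podn completed the 25. Lgals7 would have ranked among them by ratio but had only 5 control UMIs, fewer than the 10 required in each library.

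**Figure D2:**
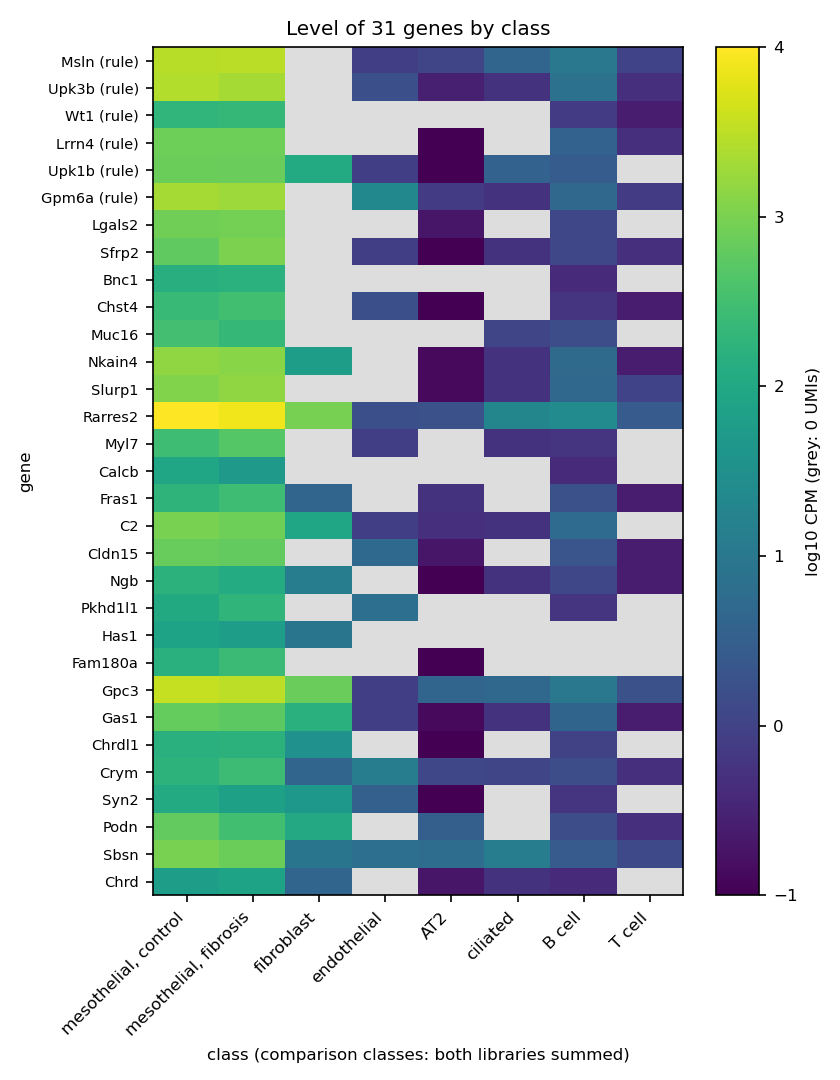
Level of the 6 rule genes and the 25 genes with the largest ratio to other cells (rows), as log10 CPM, in mesothelial cells of each library and in 6 comparison classes summed over both libraries (columns); grey marks 0 UMIs. The 2 mesothelial columns are alike, fibroblasts show Rarres2, Gpc3, C2, Gas1 and Podn among others at lower levels, and the other classes are lower still or at 0 for most genes.

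Genes known from mesothelium were also described as a list, which was chosen with earlier results of these data known. It includes Nkain4, Cldn15, Muc16, Bnc1, Gpc3 and Rarres2 from the 25 above, so it counts them again and tests nothing. Of 26 such genes not in the rule, 25 had enough UMIs and 23 of these were at least 4-fold higher than in other cells, with a median log2 ratio of 6.82 against 0.72 for all genes. Igfbp5 and Igfbp6, binding proteins of insulin-like growth factors, had 1411 and 1514 control UMIs and 1452 and 1594 fibrosis UMIs, and both were seen in all 56 cells. Efemp1, a fibulin, had 352 and 316 UMIs, and Rspo1, an R-spondin that strengthens Wnt signalling, had 130 and 123. The simple-epithelium keratins Krt19 (195 and 271 UMIs, log2 ratio 3.45), Krt7 (167 and 137, 4.21) and Krt18 (73 and 61, 2.49) passed the 4-fold limit. Krt8, with 44 and 66 UMIs, had a log2 ratio of 1.91, and Cd200 one of 1.39. Calb2, calretinin, a marker of human mesothelium, had 0 UMIs, which allows up to 3 UMIs or 7.11 CPM.

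Of 25 transcription factors of mesothelium and mesenchyme, 11 were measured and 10 were at least 4-fold higher than in other cells, with a median log2 ratio of 3.51. Bnc2 stood out with a log2 ratio of 7.56 from 19 control and 14 fibrosis UMIs. The inhibitors of differentiation Id1 (145 and 155 UMIs) and Id3 (107 and 114), the lung factor Nfib (112 and 89) and Gata6 (44 and 39) were also past the limit, and Klf4 (57 and 58 UMIs, log2 ratio 1.72) was not. The 4 listed factors with 0 UMIs were Tcf21, a fibroblast factor, Grhl2, an airway epithelial one, Hand2 and Twist1.

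Of 23 junction genes 5 were measured and 2 were at least 4-fold higher, with a median log2 ratio of 1.74. These were Ezr, ezrin, which ties actin to microvilli (339 and 263 UMIs, log2 ratio 2.93), and F11r, the junctional adhesion molecule JAM-A (77 and 94 UMIs, 2.29). The cadherins of epithelium and of nerve and muscle were nearly absent, with 1 UMI of Cdh1 and 0 of Cdh2. Epcam had 6 UMIs, all in the fibrosis library, and Ocln and Cldn7 had 0. Cldn15 from the ranking was therefore the claudin with the most UMIs among those looked at, and Cldn1 had 7 and 6.

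Many matrix genes had high ratios, while several genes known from activated fibroblasts were at 0. Of 51 matrix and remodelling genes, 25 were measured against other cells and 21 were at least 4-fold higher, with a median log2 ratio of 4.44. Dcn, decorin, had 630 and 777 UMIs and was seen in all 56 cells. Timp2, a metalloproteinase inhibitor, had 397 and 291 UMIs, Sparc 353 and 491, and Bgn, biglycan, 289 and 226. The list also holds S100a6, a calcium-binding protein and not a matrix component, with 1784 and 2482 UMIs. It counts among the genes past 4-fold. No UMI was found of Postn, Cthrc1, Tnc, Vcan, Lum, Mfap4, Mmp2 or Col8a1. The contractile genes Acta2 and Tagln had 3 and 1 UMIs in all, and Fn1, fibronectin, had 6. Fibroblasts of the same libraries (26 control and 29 fibrosis cells) held 192 UMIs of Fn1 and 652 of Mfap4. Mfap4 is among the markers that chose these fibroblasts, so its count there was fixed in part by the choice. Mesothelial cells were within 2-fold of fibroblasts for Dcn, with log2 ratios to fibroblasts of -0.95 in control and -0.22 in fibrosis, and for Col6a1, with 0.39 and -0.22. They were far lower for Col1a1, with -4.30 and -3.16, and for Col1a2, with -3.11 and -3.26.

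Complement genes had high ratios. Of 25 complement and acute-phase genes 11 were measured, 10 were at least 4-fold higher than in other cells, and the median log2 ratio was 6.11. C3, the central component, had 1511 control UMIs (7395 CPM) and 1184 fibrosis UMIs (5443 CPM) and was seen in all 56 cells. Its lowest, median and highest values per 10000 UMIs were 22.2, 68.6 and 217 in control and 21.6, 47.3 and 123 in fibrosis, so the 2 libraries overlapped. C3 was higher than in fibroblasts, with log2 ratios of 2.44 in control and 1.80 in fibrosis. Components of the classical pathway were present, with 366 and 336 UMIs of C4b, 198 and 169 of C2, 122 and 110 of C1s1 and 74 and 64 of C1ra. Regulators were present too, with 299 and 288 UMIs of Serping1, the C1 inhibitor, and 441 and 408 of Clu, clusterin. Cd55 was the measured gene below the limit. The acute-phase genes Saa1, Saa2, Ptx3, Orm1 and Ltf had 0 UMIs, and Lcn2 had 2 and 9.

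Of 20 genes listed for retinoic acid synthesis, transport and clearance 4 were measured and 3 were at least 4-fold higher, with a median log2 ratio of 6.61. That median includes Rarres2, which encodes the chemoattractant chemerin and is among the 25 genes with the largest ratios. Rarres2 and Aldh1a2 are also in the list of mesothelial genes, so they are counted again here. Aldh1a2, the enzyme that makes retinoic acid in mesothelium, had 166 and 125 UMIs in 53 cells, 52.1% of its UMIs in the data. Rarres2 was also past the limit, and Aldh1a1 (92 and 128 UMIs, log2 ratio 1.76) was not. The retinol uptake receptor Stra6 and the clearing enzymes Cyp26a1 and Cyp26b1 had 0 UMIs.

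Some genes of the surface coat and of water transport had high ratios. Of 20 genes of hyaluronan, glycocalyx and lubrication 8 were measured and 7 were at least 4-fold higher, with a median log2 ratio of 6.76. Has1, Muc16, Gpc3 and Podn are among the 25 genes with the largest ratios, so the list counts them again. Muc16 and Gpc3 are also in the list of mesothelial genes. Aqp1, a water channel, had 714 and 602 UMIs in all 56 cells and a log2 ratio of 5.85. Podn, a small leucine-rich proteoglycan, had 127 and 66 UMIs. Slc9a3r1, a scaffold of microvilli, had 149 and 140 UMIs, and Cd34 had 47 and 49. Sdc4 was below the limit, Has2 and Muc1 had 0 UMIs, and Prg4, the joint lubricant lubricin, had 2 in each library. Of 20 genes of coagulation, fibrinolysis and prostanoids 6 were measured and 3 were at least 4-fold higher, with a median of 2.15. They were Ptgis, prostacyclin synthase (120 and 134 UMIs, log2 ratio 6.68), Tfpi, the tissue factor pathway inhibitor (23 and 19, 4.31), and Ptgs1 (61 and 55, 2.51).

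The series title names M-CSF, the product of Csf1 (ENSMUSG00000014599, chromosome 3), which macrophages need to survive. The mesothelial cells, 0.374% of the kept cells, held 26.2% of all Csf1 UMIs. The gene had 63 control UMIs (308 CPM) and 38 fibrosis UMIs (175 CPM), as a sum over the 28 cells of each library. Its lowest, median and highest values per 10000 UMIs were 0, 2.54 and 6.92 in control and 0, 1.97 and 6.07 in fibrosis, so the cells of both libraries covered nearly the same range. The log2 ratio of fibrosis to control was -0.81 (interval -1.44 to -0.22). It was -0.41 when each cell was scaled to its own total first. In fibroblasts Csf1 had 2 and 7 UMIs (20.9 and 51.1 CPM) and in endothelial cells 20 and 19 (33.4 and 32.2 CPM). A Csf1 UMI was seen in 20 and 21 of 28 mesothelial cells and in 0.661% and 1.09% of B cells. After thinning the mesothelial shares were 35.7% and 21.4%, 10 and 6 of 28 cells. Il34, the other ligand of the M-CSF receptor, had 0 UMIs, and the receptor gene Csf1r had 1 and 5.

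Of 55 growth factors and cytokines 8 were measured, 4 were at least 4-fold higher than in other cells, and 22 had 0 UMIs. The other three past the limit were Tgfb2 (70 and 84 UMIs, log2 ratio 6.54, 35.1% of its UMIs in the data), Tgfb3 (31 and 45, 5.30) and Kitl, the ligand of Kit (37 and 38, 3.17). Tgfb1 had 1 and 2 UMIs. The chemokine and cytokine genes Ccl2, Ccl7, Cxcl1, Cxcl12 and Il6 had 0 UMIs, as did Vegfa and Hgf. Of 37 receptors 11 were measured and 6 were at least 4-fold higher, with a median of 2.20. Smo, which transmits Hedgehog signals, had a log2 ratio of 5.68 (37 and 26 UMIs), and the TGF-β co-receptor Tgfbr3 one of 4.46 (37 and 17 UMIs). Kdr, a VEGF receptor best known from endothelium, had 111 and 96 UMIs in 49 cells and a log2 ratio of 3.74, while summed endothelial markers were at most 2 UMIs in a cell.

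Genes shared by many cell types were near the level of other cells. Of 20 immediate-early and heat-shock genes 7 were measured and none was 4-fold higher, with a median log2 ratio of -0.06, and of 20 interferon and antigen-presentation genes 9 were measured and none was, with a median of -0.03. Cd74, H2-Aa and H2-Ab1 of the MHC class II pathway were lower than in other cells, with log2 ratios of -4.38, -3.93 and -4.22. Of 15 cell-cycle genes 9 had 0 UMIs, Mki67, Top2a and Birc5 among them. The measured gene was Cdkn1a, the inhibitor p21, with 74 and 85 UMIs in 23 cells.

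**Figure D3:**
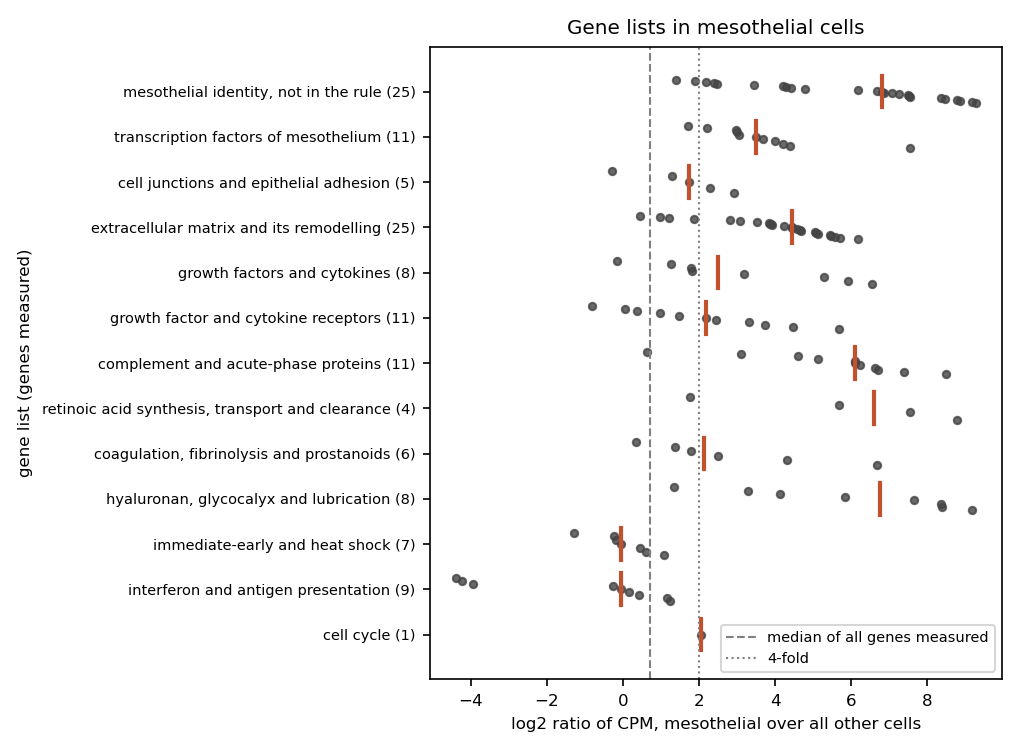
Log2 ratio of CPM in mesothelial cells to that in all other kept cells for each measured gene (points) of 13 gene lists (rows; number of genes measured in parentheses), with the list's median as an orange bar. The dashed line is the median of all 2227 genes (0.72) and the dotted line is 4-fold. Complement, retinoic acid, glycocalyx and identity genes lie furthest right, with medians from 6.11 to 6.82, and stress and interferon genes centre near 0. Some of these genes are in several lists or among the 25 with the largest ratios, so the lists are not independent.

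Fewer genes differed between the libraries. Of 2244 genes with at least 30 UMIs in the class, 47 were at least 2-fold higher in fibrosis (2.09%) and 41 at least 2-fold lower (1.83%), and the median log2 ratio was -0.05. The interval of the ratio lay beyond 0 for 40 of the 47 and 39 of the 41. Over all 2244 genes, whatever the size of the ratio, 133 intervals lay above 0 and 149 below. The share of higher genes among these calls was 53.4%. It was 40.9% with each cell scaled to its own total (56 higher and 81 lower), and 17.7% once the median ratio of 6 other cell classes was subtracted gene by gene (28 and 130).

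Among matrix genes 3 fibrillar collagens had at least 2-fold more CPM in the fibrosis library, and for 2 of them the deepest cells carried much of the difference. Col1a1 (ENSMUSG00000001506, chromosome 11) had 9 control UMIs in 7 cells (44.0 CPM) and 69 fibrosis UMIs in 16 cells (317 CPM). Its median per 10000 UMIs was 0 in control and 1.19 in fibrosis, and its highest values were 3.17 and 20.4. Cells of both libraries overlapped from 0 upwards, and all values above 3.17 were in fibrosis cells. The log2 ratio was 2.78 (interval 1.84 to 4.04), and it was 2.41 without the fibrosis cell that held most of its UMIs, 2.60 without the 2 deepest cells of each library, and 1.14 after subtraction of the other classes' median. Col3a1 had 199 and 439 UMIs, with a log2 ratio of 1.05 (0.81 to 1.3001), and Col1a2 had 48 and 105, with 1.03 (0.53 to 1.56). For Col3a1 the medians per 10000 UMIs were close, at 7.94 and 8.88, and 1 fibrosis cell held 168 of its UMIs. Without the 2 deepest cells of each library the ratio was 0.12 for Col3a1 and 0.48 for Col1a2. With each cell scaled to its own total it was 0.37 for Col3a1, and with the other classes' median of 2.21 subtracted it reversed to -1.16. That median rests largely on classes with few Col3a1 UMIs, such as AT2 cells with 4 and 31 and T cells with 2 and 13, and on B cells with 24 and 168, which include very deep cells. In fibroblasts, where the collagens are abundant, the log2 ratios were 1.64 for Col1a1, 1.67 for Col3a1 and 1.18 for Col1a2. Loxl1, an enzyme that cross-links elastin, went the other way with 45 and 23 UMIs (-1.04, -1.85 to -0.30). Over the 26 measured genes of the matrix list 3 were called higher and 1 lower, 7 intervals lay above 0 and 7 below, and the median log2 ratio was 0.06. S100a6, not a matrix component, was among those with an interval above 0 (0.30 to 0.47).

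Several immediate-early genes, which cells switch on within minutes of a stimulus, had fewer UMIs in the fibrosis cells. Jun had 36 control UMIs in 17 cells and 12 fibrosis UMIs in 8 cells, a log2 ratio of -1.64 (-2.75 to -0.70). Btg2 had 94 and 42 UMIs (-1.24, -1.81 to -0.71), with medians of 4.32 and 1.46 per 10000, although the single highest value, 25.7, was in a fibrosis cell. Dusp1 had 30 and 14 UMIs (-1.16, -2.22 to -0.23). Of the 7 measured genes of this list 3 were called lower and none higher, and the median log2 ratio was -0.58. Klf6, a stress-responsive transcription factor outside the list, had 91 and 39 UMIs (-1.302, -1.89 to -0.76). The median ratios of the other classes were -0.35 for Jun, -0.33 for Btg2, -0.14 for Dusp1 and -0.21 for Klf6. Jun was also lower in fibroblasts, at -0.82 (-1.65 to -0.02), and in endothelial cells, at -0.74 (-0.90 to -0.58). Klf6 had a log2 ratio of 0.50 (-0.27 to 1.34) in fibroblasts and -0.38 (-0.70 to -0.06) in endothelial cells. With each cell scaled to its own total the ratio of Btg2 was -0.62.

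Elsewhere the calls were scattered. Podn was lower in fibrosis (127 and 66 UMIs, -1.03, -1.49 to -0.59), as were the receptors Tgfbr3 (-1.19) and Tnfrsf1a (-1.12), while Hoxa5 (11 and 25 UMIs, 1.06) and the desmosomal gene Perp (10 and 28, 1.35, with a median of 1.35 in the other classes) were higher. None of the 11 complement genes passed 2-fold, all 11 had a ratio below 0, and 3 intervals lay below 0, C3 at -0.44 (-0.55 to -0.33) among them. The median of that list was -0.24. Over all 2244 genes measured it was -0.05, so a ratio below 0 was the commoner sign there too, and 149 intervals lay below 0. In fibroblasts the ratio of C3 was 0.19 (-0.13 to 0.52). Rarres2 had a log2 ratio of -0.49 (-0.59 to -0.40). Sfrp2 was higher at 0.80 (0.47 to 1.13), below the 2-fold limit, with medians of 4.14 and 8.22 UMIs per 10000. The chaperone gene Creld2 (28 and 10 UMIs) and the RNA genes Gm12840 (124 and 51) and Kcnq1ot1 (46 and 20) were also at least 2-fold lower. Tuba1b (144 and 81 UMIs, -0.92) was among the 10 lowest by the interval bound nearest 0 and did not reach 2-fold.

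Several of the most different genes, mainly among the higher ones, differed between the libraries in other classes too. Gstp1, a glutathione transferase, had 30 and 164 UMIs, a log2 ratio of 2.34, and the median over the other classes was 2.04. The corresponding values were for Gm10073 1.93 and 1.90, for Gm10076 1.67 and 1.76, for Rpl15 1.65 and 1.16, for Gm26917 3.21 and 2.22, and for AY036118 1.44 and 3.30. Rps27rt and Wdr89 were lower, at -1.90 and -1.99, with -1.63 and -1.75 elsewhere. Several of these genes have near-identical copies elsewhere in the genome, so their counts per gene are uncertain. Of the 47 higher genes 45 could be compared with the other classes and 15 were also at least 2-fold higher there. Of the 41 lower genes 35 could be compared and 2 were also at least 2-fold lower there. The matching share over all comparable genes is not given here, so these counts are descriptive. With the other classes' median subtracted, 19 of the higher and 19 of the lower genes were still at least 2-fold different.

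**Figure D4:**
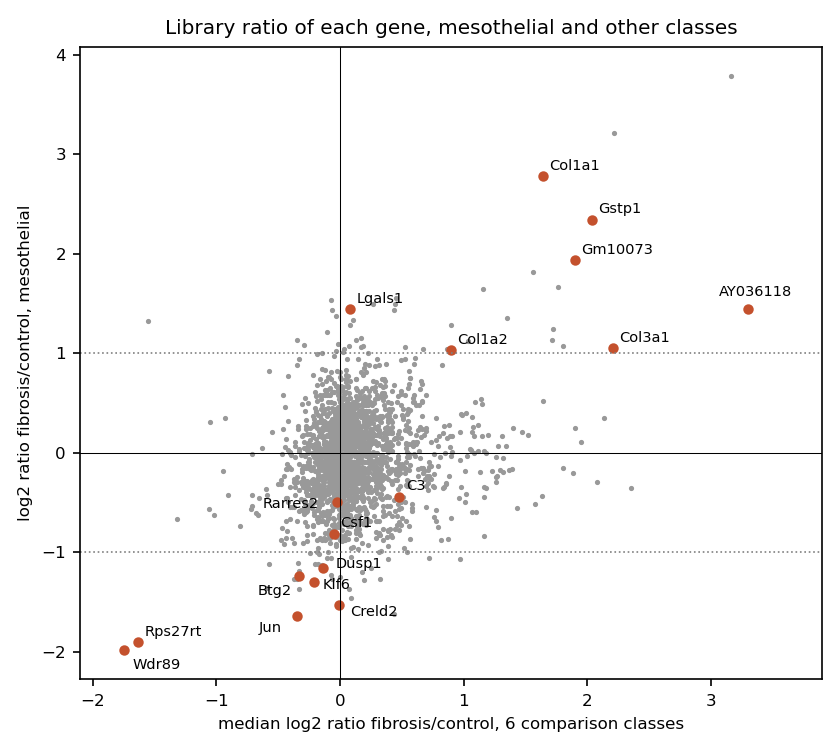
Log2 ratio of fibrosis to control in mesothelial cells (vertical axis) against the median of that ratio over 6 comparison classes (horizontal axis) for each measured gene with both values; dotted lines mark 2-fold, and orange points are named. Gstp1, Gm10073, Rps27rt and Wdr89 lie near the diagonal. Klf6 and Creld2 lie below the dotted line in mesothelial cells with medians of -0.21 and -0.01 elsewhere, though Creld2 was at -0.88 (-1.78 to -0.06) in endothelial cells. Jun lies lower still, with a median of -0.35. Lgals1 is plotted with all cells and is at -0.47 without its top cell.

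The spread of UMIs among the mesothelial cells was compared with that expected from counting alone. Among 650 genes with at least 100 UMIs the median ratio of observed to expected spread was 1.31, and it was 39.6 for Slpi, 35.6 for Malat1, 34.9 for Lgals1, 30.8 for Lgals7 and 19.6 for Igfbp5. The genes described next were singled out after their values had been seen. Slpi, a secreted protease inhibitor, had 742 UMIs in 43 cells, and 3 cells held 37.2% of them. Its medians were 3.60 and 6.98 UMIs per 10000 in control and fibrosis, while the highest cells reached 156 and 109. Slurp1, a small secreted protein, had 228 and 315 UMIs in 18 and 16 cells, and its log2 ratio between libraries went from 0.38 to -0.13 without the deepest cell of each library. Myl7 was seen in 12 control and 14 fibrosis cells and Cdkn1a in 11 and 12. In each of these genes high and low cells were found in both libraries.

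Other uneven genes rested on 1 or 2 cells. Of the 181 Lgals7 UMIs, 108 lay in a fibrosis cell of 16462 UMIs and 56 in a fibrosis cell of 37762 UMIs, the deepest of the class. The first of these also held 128 of the 227 UMIs of Lgals1, and it met the rule of another class as well. Without that cell the log2 ratio of Lgals1 went from 1.44 to -0.47. These cells carried 11 and 25 of the 69 fibrosis Col1a1 UMIs and 82 and 168 of the 439 Col3a1 UMIs. S100a8, a neutrophil gene, had 40 of its 106 UMIs in 1 cell. The acute-phase gene Saa3 had 15 UMIs in 3 control cells, 13 of them in 1, and none in the fibrosis library.

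**Figure D5:**
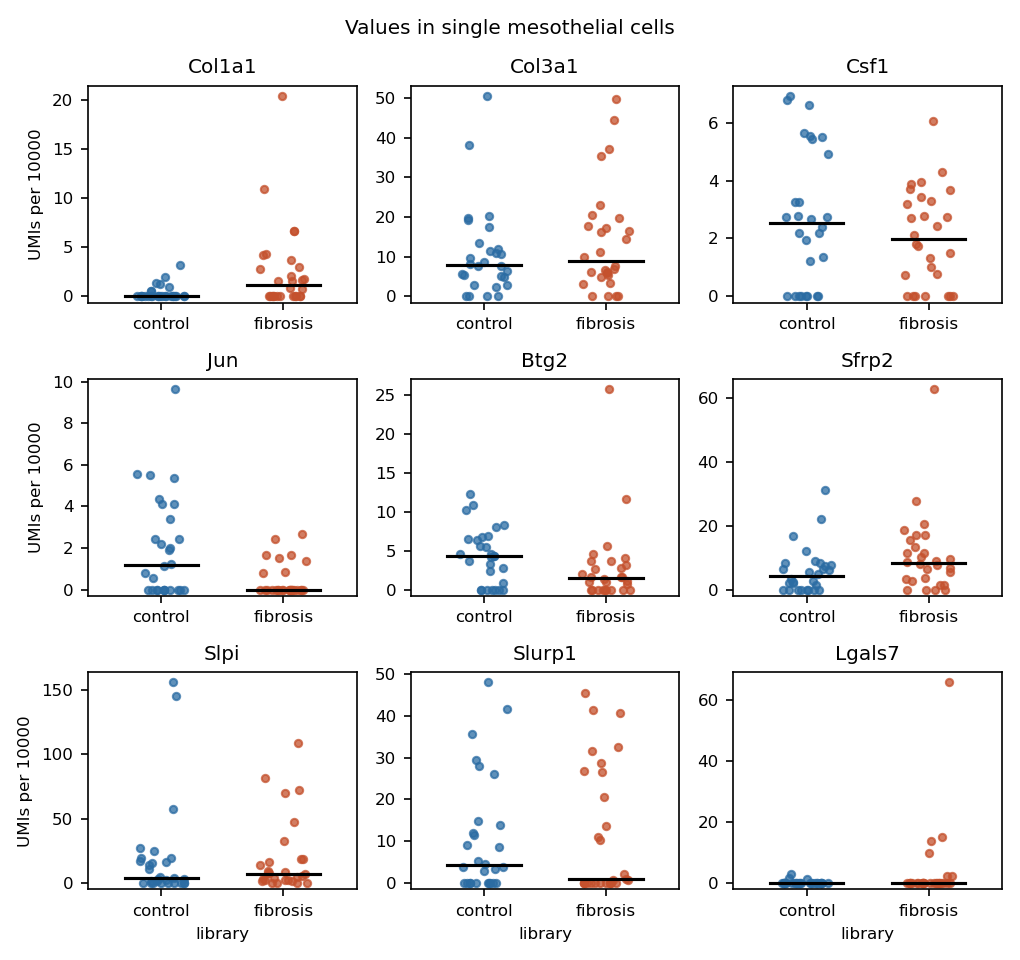
UMIs per 10000 in each of the 28 control (blue) and 28 fibrosis (orange) mesothelial cells for 9 genes, with a bar at the median; points are spread sideways for legibility. Csf1 and Col3a1 cover the same range in both libraries, Jun and Btg2 are mostly higher in control cells, Slpi and Slurp1 are high in some cells of each library, and Lgals7 is high in a few fibrosis cells.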

How the data were processed

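The deposited values are raw UMI counts per gene and cell for 27998 genes, without normalisation. Per the submitters' processing notes they were made with bcl2fastq and Cell Ranger 1.3 on mm10. The cells, genes and gene lists described here were chosen with earlier results of these data known. Cells above 10% mitochondrial UMIs were left out (254 control and 228 fibrosis cells). Every gene ID is as deposited, and 27645 of them occur in GENCODE M21 (GRCm38), from which chromosomes were taken.

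UMIs were summed over the cells of a class and library and scaled to CPM. Log2 ratios had 0.5 UMI added to each sum. Intervals are exact at 95%: Clopper-Pearson for shares, binomial for ratios. Intervals and floors (3 counts for a count of 0) cover counting error only. Because 3′ counts are not per length, levels were not ranked between genes. A gene needed 30 UMIs in mesothelial cells for a comparison of the libraries, and 10 in each library as well for the ratio to other cells; calls were 2-fold and 4-fold. Comparison classes (fibroblast, endothelial, AT2, ciliated, B and T cells) held at least 3 of 6 markers and met no other rule, and a median over them needed 3 classes with 10 UMIs in all. B cells included some very deep cells, up to 107519 UMIs, so B-cell background is given as shares and medians. No doublet caller was run. Cells meeting another class's rule were counted and left out as an alternative. Named genes are the 6 rule genes, the 25 largest ratios to other cells, the 10 highest and 10 lowest between libraries by the interval bound nearest 0, up to 6 per list by UMIs, ratio or call, those at 0 UMIs, and Csf1. A few genes within these sets are not reported here. The code was tested on simulated counts. Python 3.11.15, numpy 2.4.6, scipy 1.17.1 and pandas 2.3.3 were used.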

Additional observations from a re-analysis of the deposited data

How the results depend on the processing

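Each result was recomputed under other limits on rule genes, mitochondrial share, Ptprc, depth, weighting and scaling. With Ptprc 0 cells as the denominator the shares were 0.969% and 0.937%. The 470 genes raised over other cells were 287 with a minimum of 60 UMIs and 403 to 543 under the other settings. With that minimum 20 genes were higher and 10 lower in fibrosis, and with a minimum of 15 UMIs 165 and 207. The lower genes numbered 82 with Ptprc not used and 81 with each cell scaled to its own total, while 28 were higher and 130 lower after subtraction of the comparison classes' median, whose own median over genes was 0.07. Among genes called 2-fold different, direction reversed for Lgals1, at -0.69 without members meeting another class's rule and -0.47 without its top cell (chosen after seeing the data), and after subtraction for Gm10076 at -0.10, AY036118 at -1.86 and Col3a1 at -1.16. Among genes not called, the sign changed with a value outside the main interval for Slurp1 (0.38, at -0.13 without the deepest cell of each library and -0.03 without its top cell), Gpc3 (0.14 with each cell scaled), and after subtraction Gpm6a (0.76) and Sbsn (0.48). Leaving out the 2 deepest cells of each library was also chosen after seeing the data. Fewer genes pass a higher minimum by construction, and the cause of the other shifts was not tested. Totals were taken over 51 genes, namely the rule genes, the 25 largest ratios, the 10 highest and 10 lowest between libraries, and Csf1. Of their values that did not reverse, 403 moved by less than their interval and 24 by more. These totals pool all settings. Only some of the 51 genes had a comparison classes' median. With it subtracted, only 9 moved by less, 12 moved by more and 2 reversed, Gm10076 and AY036118. Col3a1 is not among the 51. No paired analysis was possible because each group holds 1 sample. Depth limits genes such as Wt1, whose share of cells follows the UMIs per cell.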

Other observations

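Genes of protein folding in the endoplasmic reticulum were grouped after their values were seen. Of 18 genes 16 were measured, 13 had a log2 ratio of fibrosis to control below 0, 9 intervals lay below 0 and none above (149 below and 133 above over all 2244 genes measured), and 3 were at least 2-fold lower. The median was -0.56, against 0.17 for the median ratios of the same genes in the comparison classes. Over all 2244 genes measured the median was -0.05, so a ratio below 0 was the commoner sign there too. Fibroblasts had low ratios for several genes of this group, with -1.57 for Hspa5, -1.32 for Manf, -1.05 for Hyou1, -0.76 for Pdia4, -0.73 for Calr and -0.57 for Pdia6. Hyou1 had only 10 fibroblast UMIs and was not measured in mesothelial cells. Others were above 0 in fibroblasts, with 0.86 for Dnajb11, 0.46 for Atf4, 0.34 for P4hb, 0.23 for Canx, 0.22 for Sdf2l1 and 0.06 for Pdia3. Hspa5, the chaperone BiP, had 294 and 193 UMIs (-0.70, -0.97 to -0.43), and Calr, calreticulin, 266 and 181 (-0.64, -0.93 to -0.37). Creld2 had 28 and 10 UMIs, Dnajb9 24 and 9, and Atf5, a transcription factor of the stress response, 24 and 8. Hsp90b1 (301 and 283 UMIs, -0.18), Pdia3 (204 and 205) and Xbp1 (47 and 48) were close in both libraries, and Pdia4 (39 and 48) at 0.21, Sdf2l1 at 0.28 and Atf4 at 0.25 were above 0.

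Some genes with many UMIs stood outside every list and were also picked after their values were seen. Fmo2, a flavin monooxygenase, had 855 and 650 UMIs in 55 cells and a log2 ratio to other cells of 6.44. Mgp, matrix Gla protein, which limits calcification, had 1838 and 1720 UMIs (4.98), but its level in mesothelial cells was below that in fibroblasts, with log2 ratios to them of -1.60 in control and -2.37 in fibrosis. Crip1 had 3421 and 4266 (3.30). Each was seen in at least 55 of the 56 cells.

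The 12 cells with Ptprc that met the other parts of the rule held the class's genes as well. One control cell of 7518 UMIs had 27 Msln, 28 Upk3b and 74 Rarres2 UMIs with 1 Ptprc UMI, and a fibrosis cell of 18583 UMIs had 61, 26 and 189 with 1. A control cell of 6728 UMIs had 1 Msln, 0 Upk3b and 1 Rarres2 UMIs with 3 Ptprc UMIs.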
